A study of Arabidopsis thaliana with 12 samples.

Results

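The single mutants brm-1 and ga1-3 of Arabidopsis thaliana were set directly against each other. Each difference sets the loss of the chromatin remodeler BRM against the lack of gibberellin (GA). The paper reports that another brm null line holds less active gibberellin than the wild type, though more than the gibberellin mutant. The contrast therefore does not cleanly separate the loss of BRM from a shortage of gibberellin. Effects of low gibberellin shared by both mutants can partly cancel in it, which was not tested. The comparison used the 3 brm-1 arrays and the 3 ga1-3 arrays, 6 of the 12 ATH1 arrays of the study, and took in every probe set that is not a spiked control. The other 6 arrays, 3 of the wild type and 3 of the double mutant ga1-3/brm-1, entered the estimate of the spread and are given as reference levels but were not part of the contrast. RNA came from whole shoots of seedlings aged 18 days in the Col-0 background, grown on agar medium with sucrose, and the study's methods call the 3 arrays of a genotype biological replicates. The brm-1 allele is a null allele of BRM, and homozygotes are sterile, so that seedlings had to be picked by genotyping from segregating progeny. The ga1-3 line, which lacks a working GA1 gene, had been introgressed into Col-0. Its seeds, and those of the double mutant, were soaked in gibberellic acid and rinsed before sowing, so this treatment and the ga1-3 genotype cannot be told apart. In bulk shoots, fewer cells of a type and less RNA per cell cannot be told apart.

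BRM (BRAHMA) is an ATPase of SWI/SNF complexes, which use ATP to move or evict nucleosomes and so change access to promoters. GA1 encodes ent-copalyl diphosphate synthase, the first committed enzyme of gibberellin synthesis. The later steps are carried out by ent-kaurene oxidase (GA3), the GA 20-oxidases and the GA 3-oxidases. Active gibberellin binds the GID1 receptors, which then bring about the breakdown of the DELLA repressors GAI and RGA through the F-box protein SLY1. Genes of the late synthesis steps are known to be raised when gibberellin is short and lowered when it is plentiful.

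The 2 mutant alleles that define the comparison were followed in the study by PCR, and the primers on the 2 mutated genes are shown because they mark the lesions that separate the lines. BRM lies on chromosome 2 and GA1 on chromosome 4. Mut1L and Mut1R amplify the intact BRM allele, the ga1-3wt pair the intact GA1 allele and the ga1-3mut pair the ga1-3 allele. Each is written 5′ to 3′, and no letter is emphasised.
Mut1L: gatttccccaaattcgatgc
Mut1R: atcacccacggcgcctattcctaat
ga1-3wtF: tttggcccaacacacaaacaaacctt
ga1-3wtR: aagcttcgaactcaaggttcta
ga1-3mutF: aatgagattcatgtttggc
ga1-3mutR: tttcttcataccacctgcgttc

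The levels are log2 GC-RMA signals as the authors deposited them, and every difference is brm-1 minus ga1-3 on that scale. A probe set was called where limma gave a Benjamini-Hochberg adjusted p under 0.05 and the fold change was over 1.5. Of 16764 probe sets tested, 2472 were called (14.7%), of which 1265 were higher in brm-1 (7.55% of those tested) and 1207 were lower in brm-1 (7.2%). The median called difference was 1.03 among the former (2.04-fold) and -0.96 among the latter (1.95-fold). Differences over 4-fold were found for 141 probe sets higher in brm-1 and for 136 lower in brm-1, and those over 8-fold for 43 and 36. Over all probe sets the median difference was -0.01, with quartiles of -0.22 and 0.22. The 3 brm-1 arrays lay wholly above the 3 ga1-3 arrays for 2888 probe sets (17.2%) and wholly below them for 3300 (19.7%). Among called probe sets the arrays did not overlap for 1248 of the 1265 and for 1183 of the 1207. A genotype mean under 4.70, the 26th percentile of all values, is called near background here, and a fold against such a mean can understate the true ratio. Of the probe sets called higher in brm-1, 130 were near background in both mutants and 261 in 1 of them, and of those called lower the counts were 140 and 209.

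**Figure D1:**
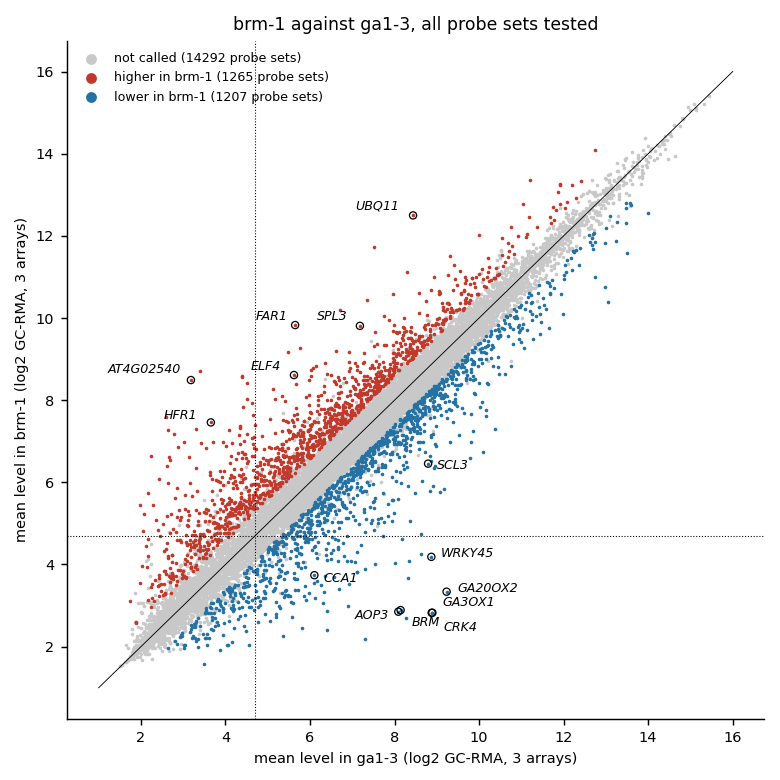
Mean level of every probe set tested in ga1-3 (x axis) and in brm-1 (y axis), both in log2 GC-RMA over 3 arrays, with the 1265 probe sets called higher in brm-1 in red and the 1207 called lower in blue. The line marks equal levels, the dotted lines mark the near-background level of 4.70, and circled genes are described in the text, with BRM, GA3OX1, GA20OX2, AOP3 and CRK4 near background in brm-1 and high in ga1-3.

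Arrays of brm-1 did not lie equally close together. After genotype means were taken off, the leading principal component held 25% of the remaining spread, and brm-1 replicate 3 scored 37.8 on it, brm-1 replicates 1 and 2 scored -20 and -17.8, and the arrays of the other genotypes scored from -9.80 to 6.99. Without that array 2200 probe sets were called, 1931 of them among the 2472 and none in the other direction. The leaf marker RCA (Rubisco activase), the 1 of 6 leaf markers that could be named, stood at 13.88 in brm-1 and 14.46 in ga1-3. Of 6 flower markers, 3 could be named (1 by the platform). The highest mean among them was 8.26 in brm-1 and 6.04 in ga1-3, each from a different marker. Only SEP3, described with the flowering genes, was called, higher in brm-1 (8.26 against 5.12, 8.8-fold). The tapetum regulator AMS was near background in every genotype. No probe set was named for the 9 root and the 8 seed markers, so their level was not analysed here.

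Each called probe set was then placed by all 12 arrays. For 1173 of the 2472 called probe sets (47.5%) the 6 arrays of the lines with brm-1 did not overlap the 6 arrays of the lines with BRM, whatever their GA1 allele, against 13.1% of all probe sets tested. For 312 called probe sets (12.6%) the split ran along ga1-3 instead, against 3.36% of all probe sets tested. The remaining 987 (39.9%) were split cleanly by neither mutation. The double mutant mean lay nearer to brm-1 for 1742 called probe sets (70.5%) and nearer to ga1-3 for 730 (29.5%), and the share nearer to brm-1 was 64.9% among those higher in brm-1 and 76.3% among those lower in it. The wild-type mean lay between the 2 mutants for 1550 called probe sets, above both for 453 and below both for 469. These placements are descriptions, since the brm-1 and ga1-3 arrays that made the calls also enter them.

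Gene names came from the platform annotation for 9267 probe sets, of which 13.7% were called. A further 1657 were named only through the study's tables of changed genes, and 44.5% of these were called, so a list made up largely of such genes starts from a high share of calls. The number of members that the platform named is therefore given with the list counts.

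BRM stood at 2.79, 3.01 and 2.87 in brm-1 replicates 1 to 3 and at 8.28, 8.22 and 7.93 in the ga1-3 arrays. The difference was -5.25 ± 0.11 (SE, adjusted p = 1.99e-09), and the level in brm-1 lay near background and close to that of the double mutant (2.88), while ga1-3 lay close to the wild type (7.88). The GA1 transcript could not be named among the probe sets and was not analysed here. Of 12 SWI/SNF subunit genes, 7 could be named (5 by the platform). Besides BRM, CHR23, a further SWI/SNF-type ATPase, was called lower in brm-1, with 4.27 ± 0.42 against 5.32 ± 0.24 (SD, n = 3; difference -1.05, adjusted p = 0.00568). Its 6 arrays with brm-1 lay below its 6 arrays without it. The core subunits BSH, SWI3A, SWI3B, CHB3 and CHC1 were not called, and their differences ran from -0.32 (CHC1, adjusted p = 0.0489, under the fold threshold) to -0.09 (BSH).

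Gibberellin synthesis genes showed the reverse arrangement, in which ga1-3 stood apart from both the wild type and brm-1. All 5 members of the list of 10 that could be named, each through the study's tables, were called lower in brm-1, and for 4 of them the split ran along ga1-3 in all 12 arrays. GA3OX1, which encodes the 3-oxidase that makes active gibberellin, stood at 2.81, 2.86 and 2.80 in the brm-1 arrays and at 8.99, 9.09 and 8.56 in the ga1-3 arrays. That is a difference of -6.05 ± 0.18 (SE, 66.4-fold, adjusted p = 2.07e-08). The brm-1 level lay below that of the wild type (4.93 ± 0.15, SD, n = 3) and the ga1-3 level above it, so the 2 mutants stood on opposite sides. GA20OX2, a 20-oxidase of the steps before it, was at 3.65, 3.16 and 3.21 in brm-1 and at 9.48, 9.34 and 8.88 in ga1-3. Its wild-type mean of 4.73 lay between them, and the difference was -5.89 ± 0.16 (adjusted p = 1.78e-08). The study's own RT-qPCR found GA20OX2 raised in brm-1 over the wild type. It names GA20OX2 as the only gibberellin pathway gene for which arrays and RT-qPCR disagreed. The place of brm-1 below the wild type for GA20OX2 is therefore uncertain. For GA20OX1 the brm-1 arrays read 2.68, 2.76 and 3.16 and the ga1-3 arrays 6.89, 6.70 and 5.61, with the wild type (2.61) beside brm-1 near background. In GA20OX1 the difference was -3.53 ± 0.29 (adjusted p = 2.97e-05). GA20OX3 was near background in both mutants, with 2.08, 2.05 and 1.99 in brm-1 and 4.19, 4.62 and 3.31 in ga1-3 (adjusted p = 0.00525), and its arrays did not overlap. GA3, the ent-kaurene oxidase, differed from the rest of the list in its reference levels: brm-1 stood at 7.64, 7.99 and 7.80, below ga1-3 (9.09, 8.93 and 9.19), and both the wild type (8.85) and the double mutant (8.79) lay nearer to ga1-3 (adjusted p = 0.000115). None of the 8 genes of gibberellin inactivation could be named.

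**Figure D2:**
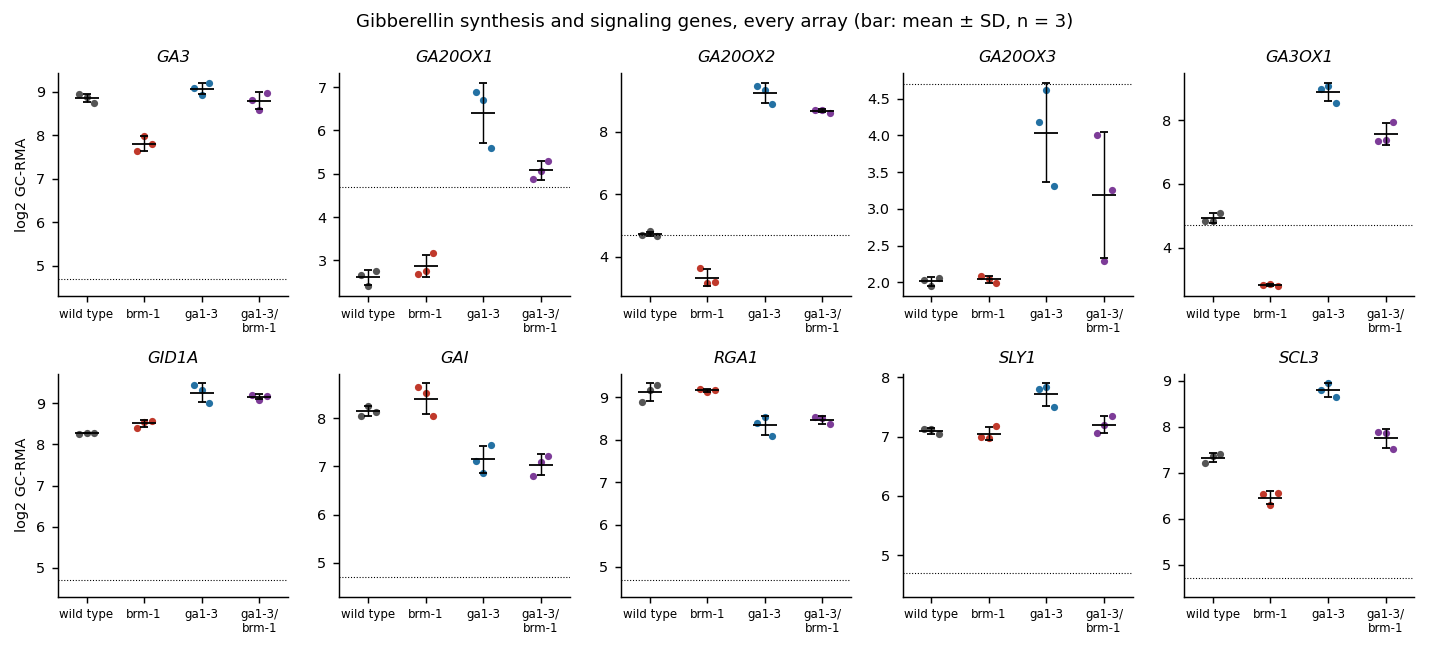
Log2 GC-RMA signal of 10 genes of gibberellin synthesis and signaling in each of the 12 arrays (points), with the mean and SD of each genotype (n = 3, black) and the near-background level of 4.70 (dotted). GA3OX1 and GA20OX2 are lowest in brm-1 and highest in ga1-3, while GAI and RGA1 are lower in ga1-3 and in the double mutant than in the wild type and brm-1.

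In the signaling branch, 9 of 12 genes could be named (6 by the platform), 2 were called higher in brm-1 and 5 lower. SCL3 encodes a GRAS protein thought to attenuate the DELLA repressors, and it is induced when gibberellin is short. It read 6.53, 6.29 and 6.55 in brm-1 and 8.79, 8.95 and 8.64 in ga1-3. As for GA3OX1, its wild-type level (7.32 ± 0.10) lay between the mutants, at a difference of -2.34 ± 0.13 (adjusted p = 1.86e-06). Of the receptors, GID1A was lower in brm-1 (8.41, 8.54 and 8.58) than in ga1-3 (9.44, 9.32 and 9.0), with an adjusted p of 0.00104. GID1B was called at -0.91 (adjusted p = 0.0444), but its brm-1 and ga1-3 arrays overlapped and it lost the call in 9 of the 12 fits that left out 1 array. GID1C was not called (-0.06 ± 0.18, adjusted p = 0.868). The F-box gene SLY1 was lower in brm-1 by a difference of -0.66 ± 0.11 (adjusted p = 0.00237), and SLY2, near background in both mutants, by a difference of -1.05 (adjusted p = 0.0207), a call lost without brm-1 replicate 2 or ga1-3 replicate 1 or 2. The DELLA genes GAI and RGA1 ran the other way, while the DELLA genes RGL1, RGL2 and RGL3 were not among those named. GAI stood at 8.64, 8.53 and 8.03 in brm-1 and 7.12, 6.87 and 7.44 in ga1-3 (difference 1.26 ± 0.19, adjusted p = 0.0011). RGA1 stood at 9.19, 9.13 and 9.17 in brm-1 and 8.38, 8.54 and 8.08 in ga1-3 (difference 0.83 ± 0.13, adjusted p = 0.00162). For both, all 6 arrays of the lines with ga1-3 lay below all 6 arrays of the lines without it, and the brm-1 mean lay on the side of the wild type. SPY, an O-fucosyltransferase that represses the response, was not called (-0.21, adjusted p = 0.14). Of 7 GASA genes, small secreted peptides of which several respond to gibberellin, 2 could be named (none by the platform). GASA6 was higher in brm-1 (1.74 ± 0.20, adjusted p = 0.000238) and AT5G14920 lower (-0.93, adjusted p = 0.0316), and the latter lost its call without brm-1 replicate 1 or 3 or any 1 ga1-3 array. Both followed brm-1 in all 12 arrays.

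The largest differences fell mostly into the same arrangements, split along ga1-3 or along brm-1. Among the 10 largest towards ga1-3, GA3OX1, GA20OX2, AT3G44970, AOP3 and ARPN were high only in the lines with ga1-3. AT3G44970, annotated as a cytochrome P450, read 2.71, 2.70 and 2.68 in brm-1, 8.18, 8.31 and 8.30 in ga1-3 and 2.77 in the wild type, a difference of -5.57 ± 0.09 (SE, adjusted p = 2.85e-10). ARPN, which encodes plantacyanin, a small blue copper protein of the cell wall, stood at 2.20, 2.21 and 2.16 in brm-1 and 7.24, 7.66 and 6.98 in ga1-3 (adjusted p = 1.67e-06). The other members of the group, CRK4, BRM, WRKY45, AT5G57910 and PAP85, were low only in the lines with brm-1. CRK4, a cysteine-rich receptor-like kinase, stood at 2.70, 2.39 and 3.39 in brm-1 against 8.27, 9.57 and 8.84 in ga1-3 (-6.07 ± 0.79, adjusted p = 0.000512). WRKY45, a transcription factor of the WRKY family, stood at 4.85, 4.65 and 3.06 in brm-1 and 8.76, 9.11 and 8.75 in ga1-3. PAP85, annotated as a cupin storage-type protein, stood at 5.25, 3.99 and 3.55 in brm-1 and 8.56, 8.92 and 8.39 in ga1-3. In all 10 the mean brm-1 level lay near background.

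Towards brm-1, the largest differences were led by AT4G02540 (5.31), AT4G01130 (5.0) and AT3G15720 (4.61). AT3G15720, annotated as a pectin lyase-like protein, was at 6.87, 7.05 and 7.87 in brm-1 and at 2.47, 2.81 and 2.67 in ga1-3, with the wild type at 2.61 and the double mutant at 5.79. It was thus present above background only in the lines with brm-1. The same held for SWEET4, a sugar transporter, with 7.51, 5.85 and 8.16 in brm-1 against a ga1-3 mean of 2.78 ± 0.56 (SD, n = 3; adjusted p = 0.000264), where the difference of 4.39 became 5.05 without brm-1 replicate 2. FAR1, a fatty acyl-CoA reductase that makes fatty alcohols, and AT2G43590, annotated as a chitinase, were higher in brm-1 by 4.18 (adjusted p = 7.2e-06) and 4.17 (adjusted p = 0.000198), but both were also above background in the wild type. FAR1 stood at 9.83 in brm-1, 8.69 in the double mutant, 8.39 in the wild type and 5.65 in ga1-3, so that ga1-3 lay farthest from the other genotypes. AT2G43590 stood at 8.56, 9.22, 6.73 and 4.39 in the same order. A second set was low only in the lines with ga1-3: AT4G02540, AT4G01130, AT3G47380, UBQ11 and AT4G19430. AT3G47380, annotated as a pectin methylesterase inhibitor-type protein, read 6.65, 5.36 and 7.88 in brm-1 and 2.05, 2.08 and 2.56 in ga1-3, and its difference of 4.40 ranged from 3.77 without brm-1 replicate 3 to 5.03 without brm-1 replicate 2. AT4G19430 differed by 3.99 (adjusted p = 0.00304), or 3.27 without brm-1 replicate 1 and 4.97 without brm-1 replicate 3. The last of the 10, WSD1, a wax ester synthase, was high in brm-1 alone (7.77, 5.52 and 7.28) and near background in ga1-3 (2.77, 2.86 and 2.98), the wild type (3.53) and the double mutant (3.29), and its difference of 3.98 became 4.65 without brm-1 replicate 2.

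The called morning-phased genes of the circadian clock followed brm-1. The clock runs on loops in which morning-phased MYB factors (CCA1, LHY) repress evening-phased genes (TOC1, ELF4), and LNK and PRR genes link the phases. Of 8 morning genes, 6 could be named, all through the study's tables. Of these, 5 were called, all lower in brm-1, with a median difference of -1.67, and all 5 split along brm-1 in all 12 arrays. CCA1 read 3.93, 3.61 and 3.68 in brm-1 and 6.12, 5.87 and 6.32 in ga1-3, below the wild type (7.51 ± 0.38) in both (difference -2.36 ± 0.28, adjusted p = 0.000264). LHY, its partner, read 2.53, 2.40 and 2.57 in brm-1 and 4.35, 4.50 and 4.46 in ga1-3, both near background, against 5.84 in the wild type. LNK2 (AT3G54500), a transcriptional coactivator, stood at 8.0, 7.54 and 6.87 in brm-1 and 9.21, 9.30 and 9.67 in ga1-3, a difference of -1.92 (adjusted p = 0.000401). In these 3 genes ga1-3 lay between the wild type and brm-1. The double mutant means were 3.96 for CCA1, 2.64 for LHY and 6.48 for LNK2, on the side of brm-1. The remaining calls were PRR7 (-1.11) and RVE1 (-1.43), named after their values were seen.

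Of 11 evening genes, 7 could be named (1 by the platform), 3 were called higher in brm-1 and 1 lower. ELF4 read 8.29, 8.19 and 9.36 in brm-1 and 5.78, 6.16 and 4.93 in ga1-3, with the wild type at 4.15 and the double mutant at 8.70 (difference 2.99 ± 0.38, adjusted p = 0.00046). TOC1 stood at 8.78, 8.50 and 9.13 in brm-1 and 7.89, 7.91 and 7.03 in ga1-3, again with ga1-3 between the wild type (6.39) and brm-1 (difference 1.19, adjusted p = 0.00515). PRR3, which stabilises TOC1, was higher by 0.90 (adjusted p = 0.0233), a call lost without brm-1 replicate 3 or ga1-3 replicate 3. PRR5 was called lower (-0.69, adjusted p = 0.0333) with overlapping arrays, and lost its call without brm-1 replicate 2 or 3 or ga1-3 replicate 1 or 2. GI, GIGANTEA, did not pass the test (0.01, adjusted p = 0.99). Of 5 output genes (1 named by the platform), COL2 (-1.83 ± 0.33, adjusted p = 0.00309) and COL1 (-0.74, adjusted p = 0.024), both CONSTANS-like, were lower in brm-1, and COL1 lost its call without brm-1 replicate 1 or 2 or ga1-3 replicate 3. The labels give no hour of harvest.

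**Figure D3:**
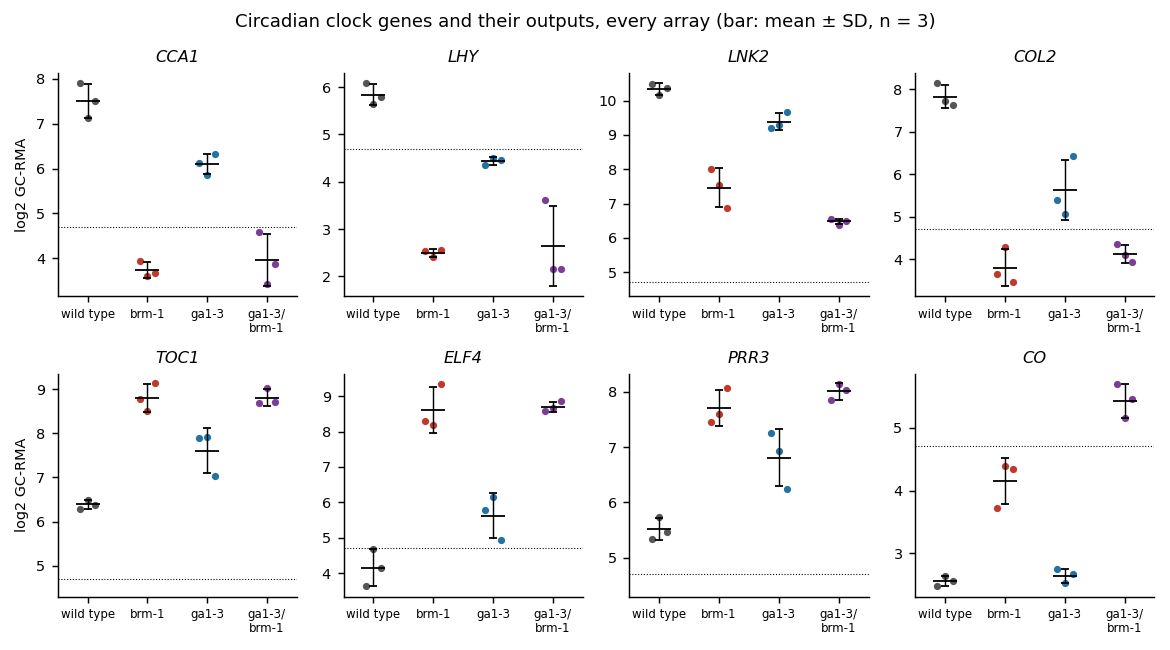
Log2 GC-RMA signal of 7 clock and clock output genes and CO in each of the 12 arrays (points), with the mean and SD of each genotype (n = 3, black) and the near-background level of 4.70 (dotted). CCA1, LHY, LNK2 and COL2 are lowest in the lines with brm-1, and TOC1, ELF4 and PRR3 are highest there, with ga1-3 between the wild type and brm-1 for these 7 genes.

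Flowering and light genes split along both mutations. Of 19 flowering genes, 10 could be named (2 by the platform), 4 were higher in brm-1 and 2 lower. CO (CONSTANS), the photoperiod activator, was near background in both mutants but stood at 3.72, 4.38 and 4.35 in brm-1 and 2.74, 2.52 and 2.66 in ga1-3, and at 5.43 in the double mutant (difference 1.51 ± 0.18, adjusted p = 0.00034). CDF1, a repressor of CO, read 4.76, 4.03 and 4.87 in brm-1 and 2.96, 3.0 and 2.85 in ga1-3, near background in both, with the wild type at 6.06 and the double mutant beside ga1-3 at 2.85. SPL3, an age-pathway factor targeted by miR156, read 10.14, 9.84 and 9.44 in brm-1 and 7.15, 7.14 and 7.25 in ga1-3 (difference 2.63 ± 0.21, adjusted p = 2.68e-05), and it was lower in all 6 arrays with ga1-3. The fourth called higher was FLC, a MADS-box repressor of flowering, near background in both mutants (difference 1.21 ± 0.37, adjusted p = 0.0381). FLC read 3.93, 3.97 and 5.49 in brm-1 and 3.23, 3.31 and 3.23 in ga1-3, with the wild type at 5.15 and the double mutant at 6.59. In the other direction, AGL24, a MADS-box activator of flowering, was lower in brm-1 (-1.85 ± 0.33, adjusted p = 0.00284), as was RAP2.7, an AP2-type repressor also known as TOE1 (-1.34, adjusted p = 0.00597). Both followed brm-1 in all 12 arrays. SEP3, a MADS-box gene of floral organ identity, was counted with the flower markers and not among these 10. It stood at 8.60, 8.37 and 7.82 in brm-1 and 5.97, 5.22 and 4.18 in ga1-3, against 7.22 in the wild type (difference 3.14 ± 0.44, adjusted p = 0.000823).

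HFR1, an atypical bHLH factor that restrains the shade response, was the only called member of the 7 light-signaling genes that could be named of 21 (1 by the platform). Its level was 7.67, 7.60 and 7.11 in brm-1 and 4.10, 3.35 and 3.51 in ga1-3, a difference of 3.81 ± 0.30 (SE, 14-fold, adjusted p = 2.35e-05). Its wild-type mean was 6.39 and its double mutant mean 3.96, so that all 6 arrays with ga1-3 were low. Without ga1-3 replicate 3 the count of called members was 3 instead of 1.

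Of 13 expansins, proteins that loosen the cell wall during growth, 8 were called higher in brm-1 and the other 5 were not called, with a median difference of 0.72. By platform names alone 6 of 10 were called, all higher. EXPA8 read 8.23, 7.69 and 8.0 in brm-1 and 6.03, 5.54 and 4.64 in ga1-3, with the wild type (6.82) between (difference 2.57 ± 0.34, adjusted p = 0.000524). EXPA1 was at 11.09, 10.49 and 10.21 in brm-1 and 8.56, 8.72 and 8.45 in ga1-3 (2.02 ± 0.22, adjusted p = 0.000198). EXPA4 was higher by 2.16 (adjusted p = 0.0364), but without ga1-3 replicate 3 the difference was 1.33 and the call was lost, as it was without any 1 brm-1 array. Of 13 xyloglucan endotransglucosylase/hydrolases (XTH), which cut and rejoin wall polymers, 4 were higher and 1 lower (3 higher of the 6 named by the platform). XTH7 was lower in brm-1 (-1.13 ± 0.21, adjusted p = 0.00351). The calls of XTH16 (1.40), XTH18 (1.68) and XTH32 (1.21) were lost in 4, 6 and 8 of the 12 fits without 1 array, and without ga1-3 replicate 3 the counts were 2 higher and 2 lower. Of 10 aquaporins, channels for water, all named through the study's tables with their share of 44.5% called, 4 were higher in brm-1, led by TIP2;2 (2.62 ± 0.57, adjusted p = 0.00859), and 1 was lower, SIP1;2, which was near background in both mutants (-2.02).

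Hormone genes outside the gibberellin pathway were mixed. Of 22 auxin genes of the Aux/IAA and GH3 type, 14 could be named (4 by the platform), 2 were higher and 3 lower in brm-1. AXR3, an Aux/IAA repressor also known as IAA17, read 3.21, 3.92 and 3.01 in brm-1 and 5.67, 5.52 and 5.72 in ga1-3 and was near background only in the lines with brm-1 (-2.26 ± 0.31, adjusted p = 0.00069). IAA19 was higher in brm-1 (1.11 ± 0.20, adjusted p = 0.00291), as was IAA7 (0.84, adjusted p = 0.000961), and both were low in all 6 arrays with ga1-3. The call of IAA1 (-0.69) was lost in 8 and that of PAP2, an Aux/IAA gene with the locus AT4G29080 (-0.60), in 7 of the 12 fits without 1 array. The 6 SAUR genes, small auxin-up RNAs, were all named through the study's tables, of whose probe sets 44.5% were called. All 6 had a negative difference, and 2 were called, which is no more than that share. These were SAUR9 (-3.23 ± 0.27, adjusted p = 3.72e-05) and SAUR23 (-1.38 ± 0.26, adjusted p = 0.00372), both along brm-1 in all 12 arrays.

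Of 16 brassinosteroid genes, 8 could be named (none by the platform), and 3 were called in each direction. BAS1, a P450 that inactivates brassinosteroids, read 4.65, 4.90 and 4.56 in brm-1 and 7.97, 7.51 and 7.71 in ga1-3, with the wild type at 5.67 (difference -3.02 ± 0.13, adjusted p = 4.37e-07). BES1, a transcription factor of the response, was higher in brm-1 (11.18, 10.98 and 11.28) than in ga1-3 (9.60, 9.61 and 9.43). Its probe set is of a type that can match several transcripts, so whether it reads BES1 alone is uncertain. The synthesis gene DWF1 was higher in brm-1 (0.91, adjusted p = 0.000488) and CYP90D1 lower (-1.12, adjusted p = 0.000296), both along brm-1. Ethylene genes with a call were EFE, an ACC oxidase (1.15, adjusted p = 0.000183), and HLS1, HOOKLESS1 (1.01, adjusted p = 0.00156), 2 of 9 named (1 by the platform), higher in brm-1 and low in all 6 arrays with ga1-3. Of 5 cytokinin genes (2 named by the platform) 1 was called, the receptor WOL (0.76), which lost its call in 9 of the 12 fits without 1 array.

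Several defence genes were lower in brm-1 than in ga1-3. PDF1.2, a defensin induced by jasmonate and ethylene, read 3.49, 4.40 and 4.24 in brm-1 and 7.43, 7.77 and 8.80 in ga1-3 (difference -3.96 ± 0.43, adjusted p = 0.000189), and it was the only one called of 4 jasmonate genes that could be named (3 by the platform). PAD4, a lipase-like regulator of salicylate signaling, read 3.12, 3.01 and 3.62 in brm-1 and 4.92, 6.40 and 5.11 in ga1-3, with the wild type at 3.79 and the double mutant at 3.68, so that only the ga1-3 mean stood above the near-background level. EDS16, the isochorismate synthase that makes salicylate, was lower in brm-1 (-1.26, adjusted p = 0.0174), a call lost without brm-1 replicate 3 or ga1-3 replicate 2. Of 15 WRKY factors, 6 were lower in brm-1 and 2 higher, and of 11 NAC factors 3 were lower and 1 higher, with 5 of the WRKY and 1 of the NAC genes named by the platform. WRKY28 differed by -2.18 (adjusted p = 0.000882) and WRKY60 by 1.22 (adjusted p = 2.74e-05). NAC1, a factor of auxin signaling in roots, read 4.0, 4.61 and 3.47 in brm-1 and 7.81, 7.38 and 7.45 in ga1-3 (-3.52 ± 0.25, adjusted p = 1.23e-05).

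UDP-glycosyltransferases (UGT), which attach sugars to small molecules, were named by the platform for 31 of 34 probe sets. Of the 34, 8 were lower in brm-1 and the other 26 were not called (6 lower among the 31), with a median difference of -0.10. UGT84A3 read 3.94, 3.79 and 4.52 in brm-1 and 6.99, 7.18 and 6.71 in ga1-3 (-2.88 ± 0.20, adjusted p = 1.2e-05). UGT85A2 (-2.62, adjusted p = 2.91e-05) and UGT85A4 (-1.81, adjusted p = 0.000363) were likewise low only in the lines with brm-1. Among 34 cytochromes P450, 13 were lower and 5 higher (4 and 1 of the 14 named by the platform). CYP81H1, with a difference of -3.40 ± 0.24, was low in all 6 arrays with brm-1. CYP706A3, with 2.83 ± 0.29, was low in all 6 arrays with ga1-3. Of 13 glutathione S-transferases, 5 were higher and 1 lower. The 9 named by the platform gave 2 higher and 1 lower, with a median difference of 0.025, so no direction is read for this family. For these 3 families the shares to compare are 13.7% called among all platform-named probe sets and 44.5% among those named through the study's tables, in either direction.

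In glucosinolate metabolism, the chemical defence of the cabbage family, 7 of 21 genes could be named (3 by the platform), 1 was higher and 3 lower in brm-1. MYB28, the regulator of aliphatic glucosinolates, was higher in brm-1 (1.33 ± 0.27, adjusted p = 0.00587). ESM1, an epithiospecifier modifier (-1.36 ± 0.19, adjusted p = 0.000756), and PYK10, a beta-glucosidase of the endoplasmic reticulum (-1.35 ± 0.31, adjusted p = 0.0111), were high in all 6 arrays with ga1-3. The third was AOP3, given below. Of 4 jacalin lectins, carbohydrate-binding proteins all named by the platform, JAL33 (-3.34, or -3.95 without brm-1 replicate 2) and JAL22 (-3.28) were lower in brm-1, and JAL33 split along ga1-3 in all 12 arrays. In the flavonoid list, 4 of the 6 named were lower in brm-1, but 5 of the 6 were named through the study's tables, of whose probe sets 44.5% were called. AACT1 was listed here by its name, that of an anthocyanin acyltransferase, and whether it acts on flavonoids was not tested. AACT1 read 2.25, 2.38 and 2.14 in brm-1 and 5.09, 4.60 and 6.40 in ga1-3. Its wild-type mean was 9.44, so both mutants were below the wild type and brm-1 was lower. TTG1, a WD40 regulator of anthocyanin and trichomes, was lower in brm-1 (-1.04 ± 0.10, adjusted p = 0.000118) and stood at 8.72 in ga1-3 and 8.83 in the wild type. Without brm-1 replicate 3, or without ga1-3 replicate 3, 2 flavonoid genes were called lower instead of 4.

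Genes of the surface lipids of the shoot formed a list drawn up after values had been seen. Of 39 genes of cuticle, wax and suberin, 15 could be named (1 by the platform), 11 were higher in brm-1 and 1 lower, with a median difference of 1.00. ABCG1, an exporter of suberin monomers, read 8.30, 7.20 and 8.61 in brm-1 and 4.45, 4.30 and 4.76 in ga1-3 (3.54 ± 0.30, adjusted p = 3.72e-05), with the wild type at 6.27. FAR1 and WSD1, given above, belong to the same list. The exception was MYB94, an activator of wax genes, which was lower in brm-1 (-1.04 ± 0.20, adjusted p = 0.00438). Since 14 of the 15 were named through the study's tables, the count has to be read against the 44.5% above.

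Of 7 leaf and meristem genes that could be named (2 by the platform), 4 were called, with KAN (1.42, adjusted p = 0.00803) and AS1 (2.26-fold, adjusted p = 0.000358), both of leaf polarity, higher in brm-1 and TCP4, a growth-limiting factor targeted by miR319 (-1.27, adjusted p = 0.00251), and YAB5 (-0.79, adjusted p = 0.00541) lower. In chlorophyll synthesis PORA, a protochlorophyllide oxidoreductase of etiolated seedlings, was at 8.67, 8.88 and 8.34 in brm-1 and 6.69, 5.76 and 6.75 in ga1-3, and GUN4, a cofactor of Mg-chelatase, was higher by 0.74 (adjusted p = 0.0072), 2 of the 3 called of 9 named (2 by the platform). LHCB4.3 was the 1 called of 7 light-harvesting genes, 3 of them named by the platform (-3.05 ± 0.30, adjusted p = 0.000114), with 6.35, 6.06 and 4.97 in brm-1 and 8.56, 9.0 and 8.95 in ga1-3. COR15B, a chloroplast protein of cold tolerance, was higher in brm-1 (2.69, adjusted p = 0.0107), or 1.95 without brm-1 replicate 3.

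Of 69 probe sets of plastid genome transcripts, all named by the platform, 21 were called higher in brm-1 and the other 48 were not called. Over all probe sets tested, 7.55% were called higher. For 41 of the 69 the 3 brm-1 arrays lay above the 3 ga1-3 arrays, against 17.2% of all probe sets tested. A positive difference was found for 66, with a median difference of 0.48 against -0.01 over all probe sets. The median plastid level was 11.40, 11.37 and 11.29 in the brm-1 arrays and 11.22, 10.90 and 10.85 in the ga1-3 arrays. The brm-1 medians thus all lay above the ga1-3 medians, while the wild-type medians (11.13, 11.25 and 11.41) overlapped both and the double mutant medians (11.06, 11.20 and 10.88) overlapped ga1-3 only. Examples were psaC, a subunit of photosystem I (1.33 ± 0.27, adjusted p = 0.00595), the assembly factor ycf3 (1.26 ± 0.18, adjusted p = 0.000767) and the ribosomal protein gene rps2 (1.24 ± 0.19, adjusted p = 0.00112). Without brm-1 replicate 3 15 were called higher. The study labelled its RNA with a 3′ IVT kit, and how far such labelling follows the level of plastid transcripts was not tested.

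**Figure D4:**
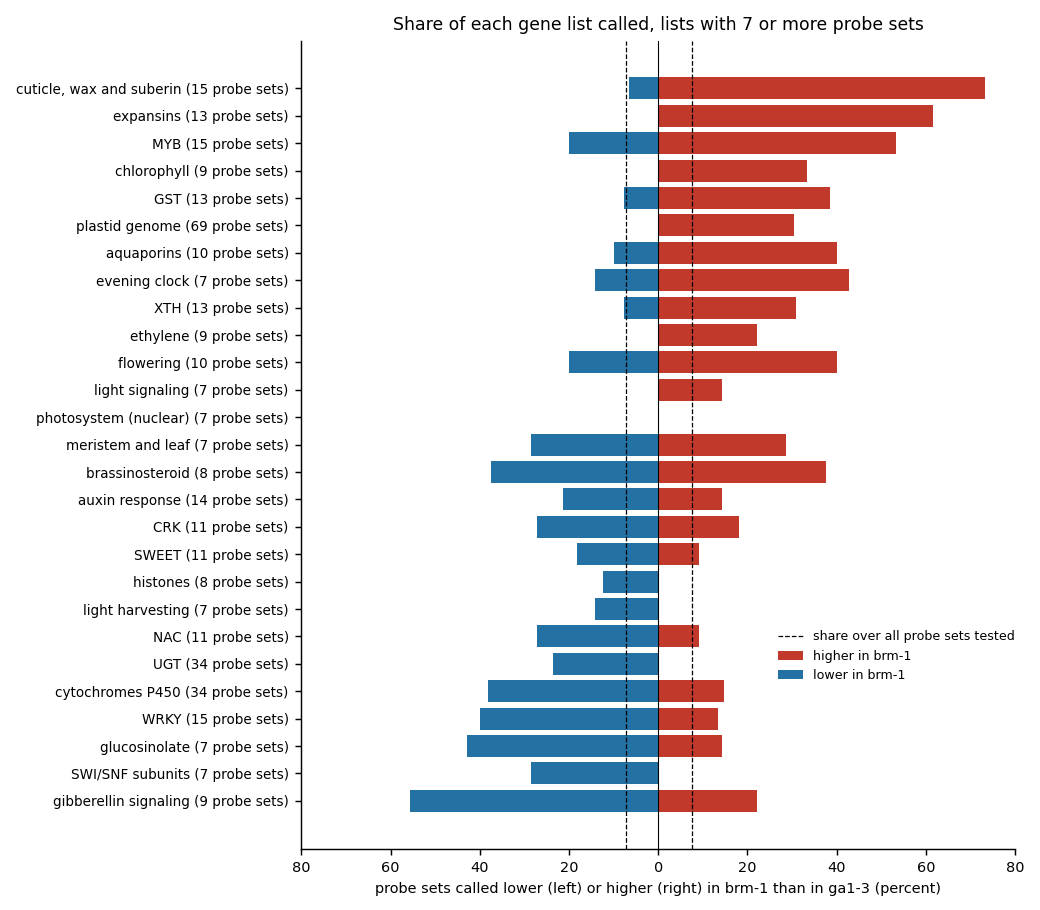
Share of the probe sets of each list or family that were called higher (red, right) or lower (blue, left) in brm-1 than in ga1-3, in percent, for lists with 7 or more probe sets, with the shares over all probe sets tested (7.55% and 7.2%) as dashed lines. Cuticle genes and expansins lie mostly to the right and gibberellin signaling, WRKY factors and cytochromes P450 mostly to the left. Many members were named through the study's tables of changed genes.

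Probe sets that set ga1-3 apart were unevenly spread along the chromosomes. Genes were put in order along the chromosomes with the RefSeq annotation, and only probe sets named by the platform were used, 9055 of protein-coding nuclear genes, of which 13.7% were called and 3.18% followed ga1-3 in all 12 arrays. Within 100 genes on either side of GA1 on chromosome 4, 17 of 61 probe sets were called (27.9%) and 5 followed ga1-3 (8.2%). Within 200 genes, 33 of 121 probe sets were called (27.3%) and 15 followed ga1-3 (12.4%). Within 400 genes on either side the counts were 45 of 192 called (23.4%) and 26 that followed ga1-3 (13.5%). Around BRM on chromosome 2, 12 of 60 probe sets within 100 genes were called (20%), 17 of 133 within 200 genes (12.8%) and 27 of 218 within 400 genes (12.4%). Counted apart from the calls, those that followed brm-1 numbered 12 (20%), 17 (12.8%) and 27 (12.4%), against 12.5% over all ordered probe sets. How far they are the same probe sets as the called ones is not given here. When each chromosome was cut into bins of 200 genes, the 4 bins with the highest share following ga1-3 among the 138 bins with 20 or more probe sets were the first 4 of chromosome 4 (16.7%, 15.8%, 11.6% and 10.5%), which hold GA1. The next was a bin of chromosome 5, at 9.72%.

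**Figure D5:**
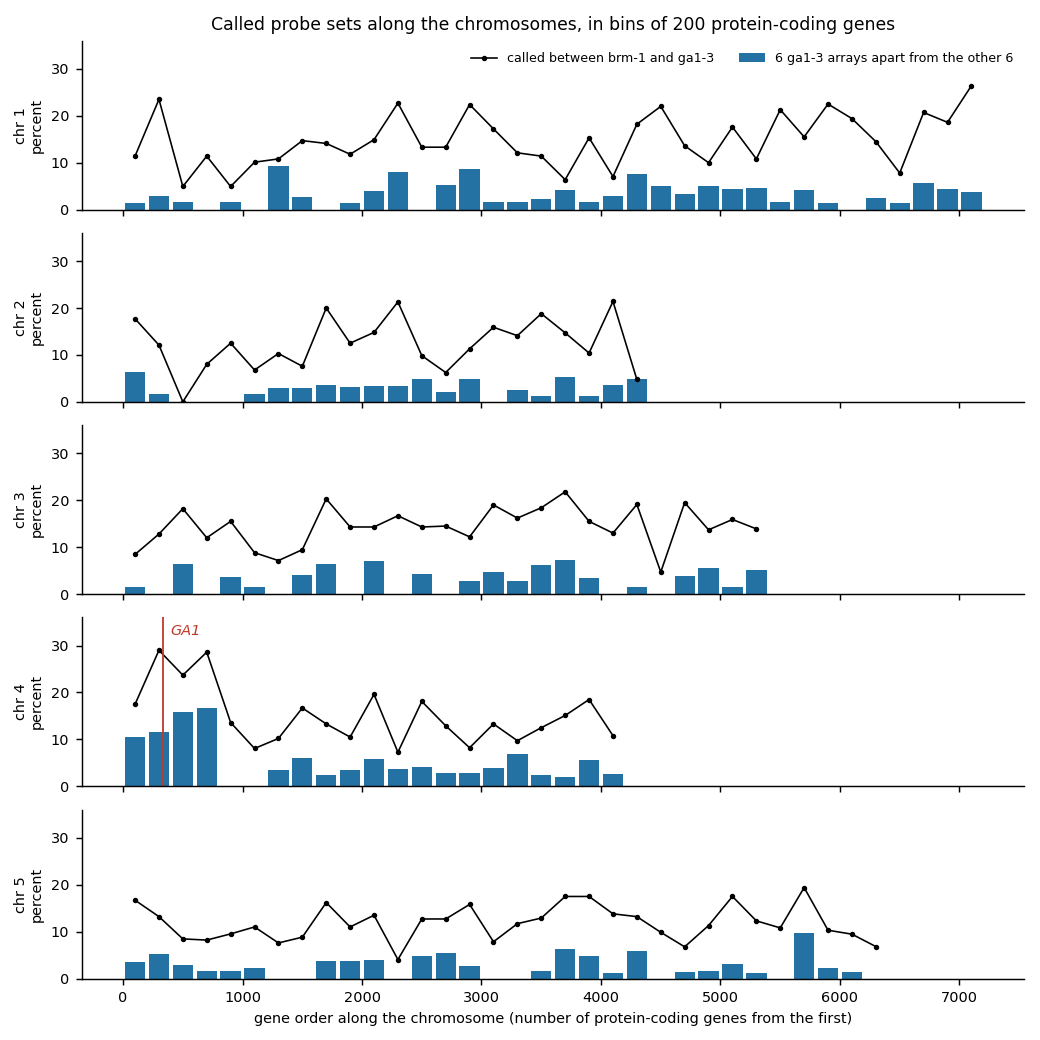
Percent of platform-named probe sets called between brm-1 and ga1-3 (black line) and percent whose 6 arrays with ga1-3 do not overlap the other 6 (blue bars), in consecutive bins of 200 protein-coding genes along each chromosome; bins with under 20 probe sets are left out. The bars reach 10.5% to 16.7% in the first 4 bins of chromosome 4, around GA1 (red line), and at most 9.72% elsewhere.

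Of the 10 largest differences towards brm-1, AT4G02540, AT4G01130 and UBQ11 lay on this part of chromosome 4, and of the 10 largest towards ga1-3 only AOP3 did. AT4G02540, 30 genes from GA1, read 8.70, 9.01 and 7.76 in brm-1 and 3.25, 3.08 and 3.22 in ga1-3, with 8.56 in the wild type and 3.14 in the double mutant. AOP3, a dioxygenase gene of glucosinolate synthesis 26 genes away on the other side, read 2.81, 3.09 and 2.65 in brm-1 and 8.36, 8.18 and 7.72 in ga1-3 (-5.24 ± 0.23, adjusted p = 5.78e-07). AT4G01130, on the same side as AT4G02540, read 7.13, 7.29 and 8.37 in brm-1 and 2.60, 2.60 and 2.61 in ga1-3. UBQ11, a polyubiquitin gene of the same chromosome, was at 12.50 ± 0.39 in brm-1 and 8.44 ± 0.50 in ga1-3 (SD, n = 3), but it belongs to a family of near-identical genes, so which copy the probes read is uncertain. In this region the difference was not of 1 direction, since 27 of the 45 probe sets called within 400 genes were higher in brm-1 and 18 lower. For these genes, lack of gibberellin and donor DNA carried along with ga1-3 in the introgressed line cannot be told apart. Whether the probes bind donor sequence as well as that of Col-0 was not tested, so a low signal here need not be a low transcript level.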

How the data were processed

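RNA from the 12 shoot samples was hybridised to ATH1 arrays, and the authors deposited log2 values made by GC-RMA in Partek and kept by a MAS5 presence filter (probe sets present in 1 or more replicates of a genotype). Versions are not given in the sources used here. The deposited table held 16824 probe sets, and 60 control probe sets were left out. Arrays have no read depth, and 3 per genotype limit the precision. limma 3.58.1 in R 4.3.3 was fitted to the 12 arrays with no term besides genotype, and brm-1 minus ga1-3 was tested with moderated statistics and Benjamini-Hochberg adjustment over all 16764 probe sets. The procedure was tested on simulated data. Names came from the platform annotation (9267 probe sets) or, for names only, from the study's tables (1657), while 358 matched several genes and 5482 were unnamed here. Gene order came from the RefSeq annotation, and list entries whose symbol and locus differed there were dropped. Named genes were the mutated genes, the gibberellin and SWI/SNF lists, the 10 largest separated differences in each direction and up to 3 called members of each other list in each direction. Members and lists were chosen with earlier results of these data known, and the cuticle, phosphate, jacalin, CRK and plastid lists were drawn up or amended after values were seen. The phosphate list gave SPX3 lower, 1 of 3 named, and the genes with a CRK symbol 2 higher and 3 lower of 11, none of them named by the platform. The symbol CRK3 stands for both AT1G70530 and AT2G46700 among the 11, neither of them called, so these may not all be cysteine-rich kinases. A block on the second factor of the methods' 2-way ANOVA was fitted and then withdrawn, and no value given here rests on it. Promoter sequences were not used here.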

Additional observations from a re-analysis of the deposited data

How the results depend on the processing

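Counts of called probe sets kept within 1.5 times of the main values (2472 called, 1265 higher and 1207 lower in brm-1) under quantile normalization (2456), median centring (2512), no variance moderation (2051), a fit of the 6 arrays alone (1881), a variance trend (2494) and without near-background probe sets (2301), and no call turned direction in these fits. Without a fold threshold 3764 were called, 2008 of them lower. With a fold over 2 the counts were 1231, 664 higher and 567 lower, and at an adjusted p under 0.01 they were 1600 and 771 higher. Leaving out 1 array gave 2179 to 2443 called, 1030 to 1250 higher and 1088 to 1193 lower. Arrays of 1 replicate number did not deviate together (correlations of -0.01, -0.14 and -0.07 for the pairs of brm-1 and ga1-3), so the numbers were not taken as pairs, and with the replicate number as a block 2327 were called. Without brm-1 replicate 3, 49.0% of called probe sets followed brm-1 and 15.2% followed ga1-3. Of 141 called genes chosen by the naming rule, 115 kept their call in all 18 alternative fits. The cause of these shifts was not tested. A block on the second factor of the methods' 2-way model had been planned and was fitted, with levels found by matching the study's own fold changes. It was withdrawn with its results because those values were not to be used, and the levels are not in the labels. Probe sets dim in both mutants and 3 arrays per genotype limit what could be detected.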
